A study of Mus musculus with 23 samples.

Results

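Collagen chain genes were taken as the probe sets whose platform symbol is Col, a number, a and a number, with the probe set of the highest mean kept for a gene that has several. The rule found 42 genes, each with 1 probe set, among 19505 named genes on the array, and it used no measured difference. They were divided by type number into 9 fibrillar chains (Col1, Col2, Col3, Col5 and Col11), 8 basement membrane chains (Col4, Col15 and Col18), 6 Col6 chains and 19 others. Col24a1 and Col27a1, usually counted as fibrillar, stand among the others by this rule, and collagens that the array's annotation does not name in this form, such as Col7a1 and Col12a1, were not analysed here.

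The arrays measured RNA from 23 orthotopic mammary tumors of E0771, a single mouse line of triple-negative breast cancer, each grown in the mammary fat pad of 1 female C57BL/6NCrl mouse. The cells were injected 22 weeks after the first diets began, a span that includes the weeks after surgery and diet change. The study asked how obesity and its loss by surgery or diet bear on the tumor. The DIO-VSG mice (n = 6 tumors) were made obese on a 60% high-fat diet and then had a vertical sleeve gastrectomy, a bariatric operation that removes most of the stomach, with a low-fat diet. The DIO-LFD mice (n = 5) were made obese in the same way and were then moved to the low-fat diet with sham surgery. The DIO-HFD mice (n = 6) stayed obese on the high-fat diet with sham surgery. The CON-LFD mice (n = 6) were never obese, ate the low-fat diet and had sham surgery. Obesity and high-fat diet cannot be told apart in DIO-HFD, nor surgery and diet change in DIO-VSG minus DIO-HFD. DIO-VSG and DIO-LFD share the change to the low-fat diet and differ in the operation. Groups follow the sample titles; the source name of DIO-LFD replicate 1 gives obesity without weight loss and that of DIO-VSG replicate 1 gives the low-fat diet group.

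Collagens are secreted proteins of 3 chains wound into a triple helix. Fibrillar collagens assemble into the tension-bearing fibers of stroma and are made mainly by fibroblasts, type IV forms the sheet under epithelium and around vessels, and type VI forms beaded filaments between these networks. In breast tumors the amount and alignment of collagen set the stiffness of the tissue, and chains of one trimer have to be made together.

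Promoter windows of RefSeq (GRCm38.p6, 250 bases before to 50 after a start site) were found for 34 of the 42 genes, 37 windows in all. The windows of Col4a1 and Col4a2 are shown first because these genes, which code for the chains of the common type IV trimer, are read in opposite directions from start sites 21 bases apart. The 78 bases that both windows hold are in capitals, on opposite strands.
Col4a1 promoter, chr8:11312777-11313076, minus strand: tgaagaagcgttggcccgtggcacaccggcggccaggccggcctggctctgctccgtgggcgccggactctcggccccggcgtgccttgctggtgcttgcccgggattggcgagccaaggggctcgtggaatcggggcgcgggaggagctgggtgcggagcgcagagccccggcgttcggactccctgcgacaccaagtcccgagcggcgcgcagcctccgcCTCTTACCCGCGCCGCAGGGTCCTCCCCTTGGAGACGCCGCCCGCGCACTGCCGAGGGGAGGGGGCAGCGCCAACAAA
Col4a2 promoter, chr8:11312555-11312854, plus strand: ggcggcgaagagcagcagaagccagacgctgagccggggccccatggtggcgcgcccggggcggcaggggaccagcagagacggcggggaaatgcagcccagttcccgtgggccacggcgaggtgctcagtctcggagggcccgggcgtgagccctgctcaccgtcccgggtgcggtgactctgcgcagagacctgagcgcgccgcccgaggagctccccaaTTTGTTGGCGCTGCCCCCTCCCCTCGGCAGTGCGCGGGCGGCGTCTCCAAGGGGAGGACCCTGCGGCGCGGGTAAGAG
Col1a2, a chain of type I collagen, is shown because its differences are among the largest described below. Col3a1, the chain of type III collagen, is shown as another fibrillar chain, with smaller differences. Col1a1 and Col5a2 are among the genes for which no window was found. Capitals mark every match, on either strand, of 3 motifs: the box CCAAT, the GC box spelled GGGCGG, and the TATA box in its strict form TATAAA.
Col1a2 promoter, chr6:4505368-4505667, plus strand: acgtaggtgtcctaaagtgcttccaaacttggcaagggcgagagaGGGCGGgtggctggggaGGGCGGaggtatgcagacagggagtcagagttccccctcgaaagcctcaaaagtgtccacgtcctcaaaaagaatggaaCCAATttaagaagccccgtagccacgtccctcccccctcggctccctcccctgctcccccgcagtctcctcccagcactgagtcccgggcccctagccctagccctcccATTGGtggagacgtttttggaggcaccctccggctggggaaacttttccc
Col3a1 promoter, chr1:45311288-45311587, plus strand: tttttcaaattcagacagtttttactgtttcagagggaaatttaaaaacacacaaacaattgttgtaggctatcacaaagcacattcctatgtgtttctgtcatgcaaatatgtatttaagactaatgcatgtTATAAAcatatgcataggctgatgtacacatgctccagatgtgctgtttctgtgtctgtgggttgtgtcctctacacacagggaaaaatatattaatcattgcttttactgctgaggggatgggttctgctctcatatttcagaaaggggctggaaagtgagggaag
The Col1a2 window held 2 CCAAT and 2 GGGCGG matches and no TATAAA, with 61.0% G or C. The Col3a1 window held 1 TATAAA match, starting at position −117 from the start site, with 37.7% G or C. Over the 37 collagen windows, GGGCGG was present in 59.5%, against 35.7% of all 32851 windows, while CCAAT was present in 32.4% against 37.4% and TATAAA in 13.5% against 13.6%. A match is a description of the letters, and no factor was measured.

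All values are log2 array signals, and a difference of 1 is a doubling of signal. Signals of different probes cannot be ranked as amounts, so each chain was compared only with itself across tumors. Array medians lay between 6.13 and 6.5, pairs of arrays correlated at 0.961 to 0.991 over genes, and neither scan dates nor batches are given in the sources used here. Arrays carry no read counts, so their number limits the precision. Signal was called low where a gene's mean was under 4.77, the 40th percentile of probe set means. By this limit 23 collagen genes lay above it: 8 of 9 fibrillar, 4 of 8 basement membrane, 3 of 6 Col6 and 8 of 19 other chains. Of 11 markers of mammary epithelium and E0771, 4 lay above the limit. These were the mesenchymal marker Vim at a mean of 17.47, the keratin Krt8 at 12.40, Erbb2 at 9.77 and the epithelial marker Cdh1 at 5.36. The others lay under it, among them the epithelial marker Epcam at 4.61 and the keratins Krt18 (4.34), Krt19, Krt14 and Krt5. Of 9 markers of cartilage and bone, only Sox9 lay above it. The skeletal muscle list exceeded a mean of 9 in 8 tumors (DIO-VSG replicates 2 and 4, DIO-LFD replicates 1, 4 and 5, DIO-HFD replicate 1, and CON-LFD replicates 3 and 5). In bulk tumors, fewer cells of a type and less RNA per cell cannot be told apart.

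No collagen gene passed an adjusted p of 0.05 in any of the 6 comparisons between groups (limma, Benjamini-Hochberg over 19505 genes). The type I chains Col1a1 and Col1a2 had lower means in both DIO-VSG and DIO-HFD tumors than in CON-LFD tumors. These differences did not survive the adjustment, and the other fibrillar chains did not all lie on the same side. In DIO-LFD tumors both type I chains also had lower means, at 10.99 and 10.49 against 12.11 and 11.10 in CON-LFD tumors. The share of all genes called was 0.00513% in DIO-HFD minus CON-LFD (1 gene) and 0% in each of the other comparisons.

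In DIO-HFD minus CON-LFD, 1 of 42 collagen genes (2.38%) was higher and 5 (11.9%) were lower at an unadjusted p under 0.05, beside 7.53% and 5.89% of all genes. The lower ones were Col1a1, Col1a2, Col15a1, Col4a5 and Col8a1, and the higher one was Col9a3. In DIO-VSG minus DIO-HFD, 0 collagen genes had such a p in either direction, beside 2.92% of all genes higher and 2.67% lower. In DIO-LFD minus DIO-HFD, 0 were higher and 1 was lower (Col9a3), beside 2.40% and 3.77%. Against CON-LFD, DIO-VSG had 0 higher and 6 lower (14.3%), beside 3.57% and 3.10%, and DIO-LFD had 2 higher (4.76%) and 0 lower, beside 2.83% and 2.60%. In DIO-VSG minus DIO-LFD, 0 were higher and 1 lower (Col4a6), beside 2.02% and 1.37%. These comparisons share groups, so their counts are not separate evidence. The smallest adjusted p of a collagen gene was 0.209 (Col8a1, DIO-HFD minus CON-LFD), and for no collagen gene did the values of any 2 groups separate without overlap, beside 1.15% of all genes in DIO-HFD minus CON-LFD and 0.205% to 0.477% in the other comparisons.

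**Figure D1:**
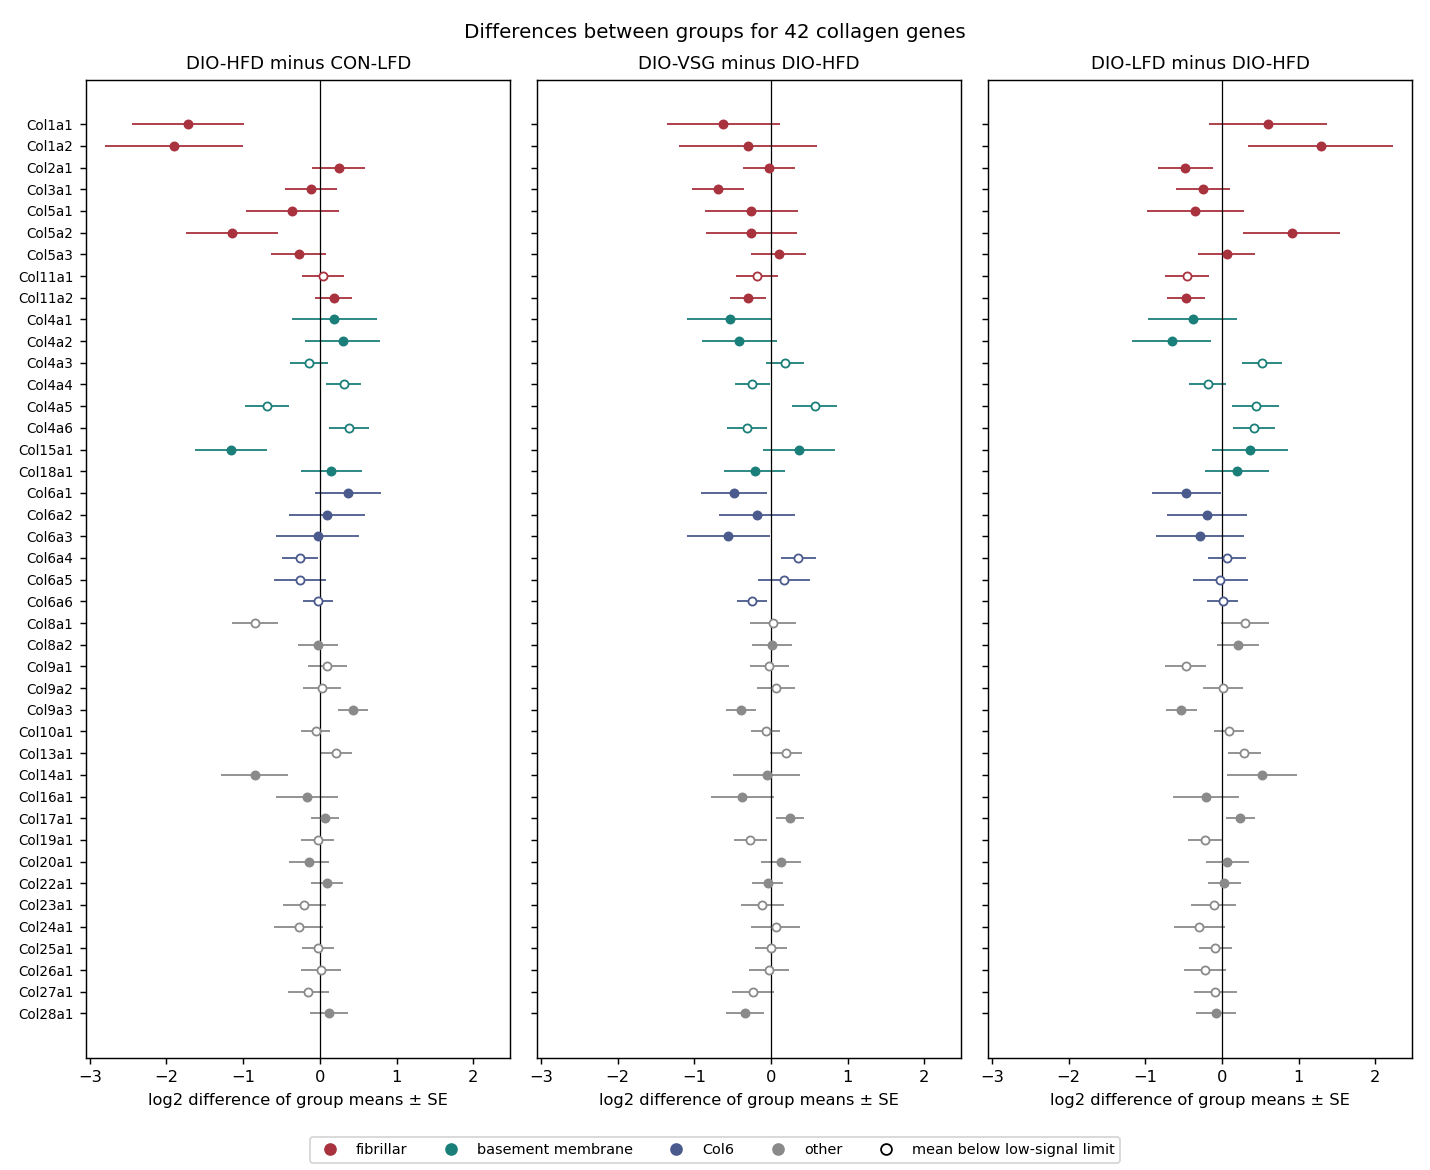
Difference in mean log2 signal of the 42 collagen genes, grouped by class, in DIO-HFD minus CON-LFD, DIO-VSG minus DIO-HFD and DIO-LFD minus DIO-HFD (left to right, log2 units on the horizontal axis). Points are fitted differences, bars are ± SE, and open circles are genes under the low-signal limit. Col1a2 and Col1a1 lie farthest below 0 in DIO-HFD minus CON-LFD, at −1.90 and −1.72, with wide bars.

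The 9 fibrillar chains had a median difference of −0.28 in DIO-HFD minus CON-LFD (3 higher, 6 lower) and of −0.61 in DIO-VSG minus CON-LFD (1 higher, 8 lower), beside 0.03 and 0.02 over all genes. In DIO-LFD minus CON-LFD all 9 had the lower mean, with a median of −0.36 beside 0.00 over all genes. Between the groups that had been obese, the median was −0.26 in DIO-VSG minus DIO-HFD (1 higher, 8 lower) and −0.25 in DIO-LFD minus DIO-HFD (4 higher, 5 lower). Without the 8 tumors rich in muscle transcripts, the medians of DIO-HFD minus CON-LFD and DIO-LFD minus DIO-HFD were 0.02 and 0.48, so neither direction is fixed. Without DIO-VSG replicate 1, the tumor whose source name gives another group, the median of DIO-VSG minus DIO-HFD was −0.13.

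Col1a1 and Col1a2 code for the chains of type I collagen, the main fiber of connective tissue. Col1a1 spanned 7.33 to 13.70 over the 23 tumors. Its lowest, median and highest values were 7.33, 9.80 and 12.17 in DIO-VSG tumors, 9.40, 10.27 and 11.90 in DIO-HFD tumors and 10.88, 12.16 and 13.70 in CON-LFD tumors, with 9.77, 13.05, 8.76, 12.10 and 11.28 in the 5 DIO-LFD tumors. Thus 5 of 6 DIO-VSG tumors and 4 of 6 DIO-HFD tumors lay below every CON-LFD tumor. The DIO-LFD tumors lay on both sides of the lowest CON-LFD value, 10.88, and the DIO-LFD minus CON-LFD difference of means was −1.11. The lowest value, 7.33, was that of DIO-VSG replicate 1, whose source name gives the low-fat diet group. The difference was −2.34 ± 0.73 (SE) in DIO-VSG minus CON-LFD, a 5.06-fold lower signal in DIO-VSG (limma, 95% interval −3.86 to −0.82, unadjusted p = 0.00403, adjusted p = 0.613). It was −1.72 ± 0.73 in DIO-HFD minus CON-LFD, 3.29-fold lower in DIO-HFD (95% interval −3.24 to −0.20, unadjusted p = 0.0278, adjusted p = 0.298 by limma). DIO-VSG and DIO-HFD differed by −0.62 ± 0.73 and DIO-LFD and DIO-HFD by 0.61 ± 0.77, both within the spread between tumors. Without DIO-VSG replicate 1 the difference was −0.13 in DIO-VSG minus DIO-HFD and −1.85 in DIO-VSG minus CON-LFD. Without the muscle-rich tumors the DIO-HFD minus CON-LFD difference was −1.30 (limma, unadjusted p = 0.133) and the DIO-VSG minus CON-LFD difference −2.46 (unadjusted p = 0.0118).

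Col1a2 had the same order of group means. Its lowest, median and highest values were 6.70, 8.70 and 12.11 in DIO-VSG tumors, 5.84, 9.73 and 10.68 in DIO-HFD tumors and 9.11, 11.24 and 12.53 in CON-LFD tumors, with 9.35, 12.17, 8.31, 11.65 and 10.99 in DIO-LFD tumors. All ranges overlapped, and DIO-HFD replicate 3, at 5.84, stood apart from its group. The difference was −2.19 ± 0.90 in DIO-VSG minus CON-LFD (4.57-fold lower in DIO-VSG, limma, unadjusted p = 0.0230, adjusted p = 0.680) and −1.90 ± 0.90 in DIO-HFD minus CON-LFD (3.72-fold lower in DIO-HFD, unadjusted p = 0.0463, adjusted p = 0.364). Without DIO-HFD replicate 3 the second value was −1.22. Both weight-loss groups can be set side by side against DIO-HFD, with −0.30 ± 0.90 for DIO-VSG and 1.29 ± 0.94 for DIO-LFD, neither of which passed the test. Without DIO-VSG replicate 1, at 6.70, the DIO-VSG minus DIO-HFD difference was 0.145, so its direction turned.

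Col3a1, whose chains form type III collagen and mix into the thinner type I fibers, had the narrower spread. Its lowest, median and highest values were 13.26, 13.79 and 14.72 in DIO-VSG tumors, 13.84, 14.74 and 15.03 in DIO-HFD tumors and 13.44, 14.92 and 15.54 in CON-LFD tumors, with 14.34, 15.33, 13.49, 14.74 and 13.89 in DIO-LFD tumors. The DIO-VSG tumors were the low ones, and 3 of 6 lay below every DIO-HFD tumor. Col3a1 had the smallest p of the collagens in DIO-VSG minus DIO-HFD, at −0.69 ± 0.34 (1.62-fold lower in DIO-VSG, 95% interval −1.39 to 0.01, limma, unadjusted p = 0.0529, adjusted p = 0.883). In DIO-VSG minus CON-LFD it was −0.81 ± 0.34 (1.75-fold lower in DIO-VSG, unadjusted p = 0.0257, adjusted p = 0.683 by limma) and in DIO-HFD minus CON-LFD it was −0.12 ± 0.34 (95% interval −0.82 to 0.58).

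Col5a1 and Col5a2, chains of the type V collagen that starts fibrils and limits their width, differed in pattern. Col5a2 was at 4.81, 6.61 and 8.20 (lowest, median, highest) in DIO-VSG tumors, 5.58, 6.80 and 7.48 in DIO-HFD tumors and 6.17, 8.12 and 9.03 in CON-LFD tumors, with 5.85, 8.44, 6.72, 8.83 and 7.89 in DIO-LFD tumors. The order of groups was that of Col1a1, with wide overlap. Its difference was −1.40 ± 0.60 in DIO-VSG minus CON-LFD (2.64-fold lower in DIO-VSG, limma, unadjusted p = 0.0278, adjusted p = 0.688) and −1.15 ± 0.60 in DIO-HFD minus CON-LFD (unadjusted p = 0.0668, adjusted p = 0.414). Col5a1 averaged 7.28 ± 1.10 in DIO-VSG, 7.19 ± 0.93 in DIO-LFD, 7.54 ± 1.14 in DIO-HFD and 7.89 ± 1.33 in CON-LFD tumors (SD, n = 6, 5, 6 and 6), group means that differ by less than 1 SD. The cartilage chains Col2a1, Col11a1 and Col11a2 had no unadjusted p under 0.05 in any comparison by limma.

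**Figure D2:**
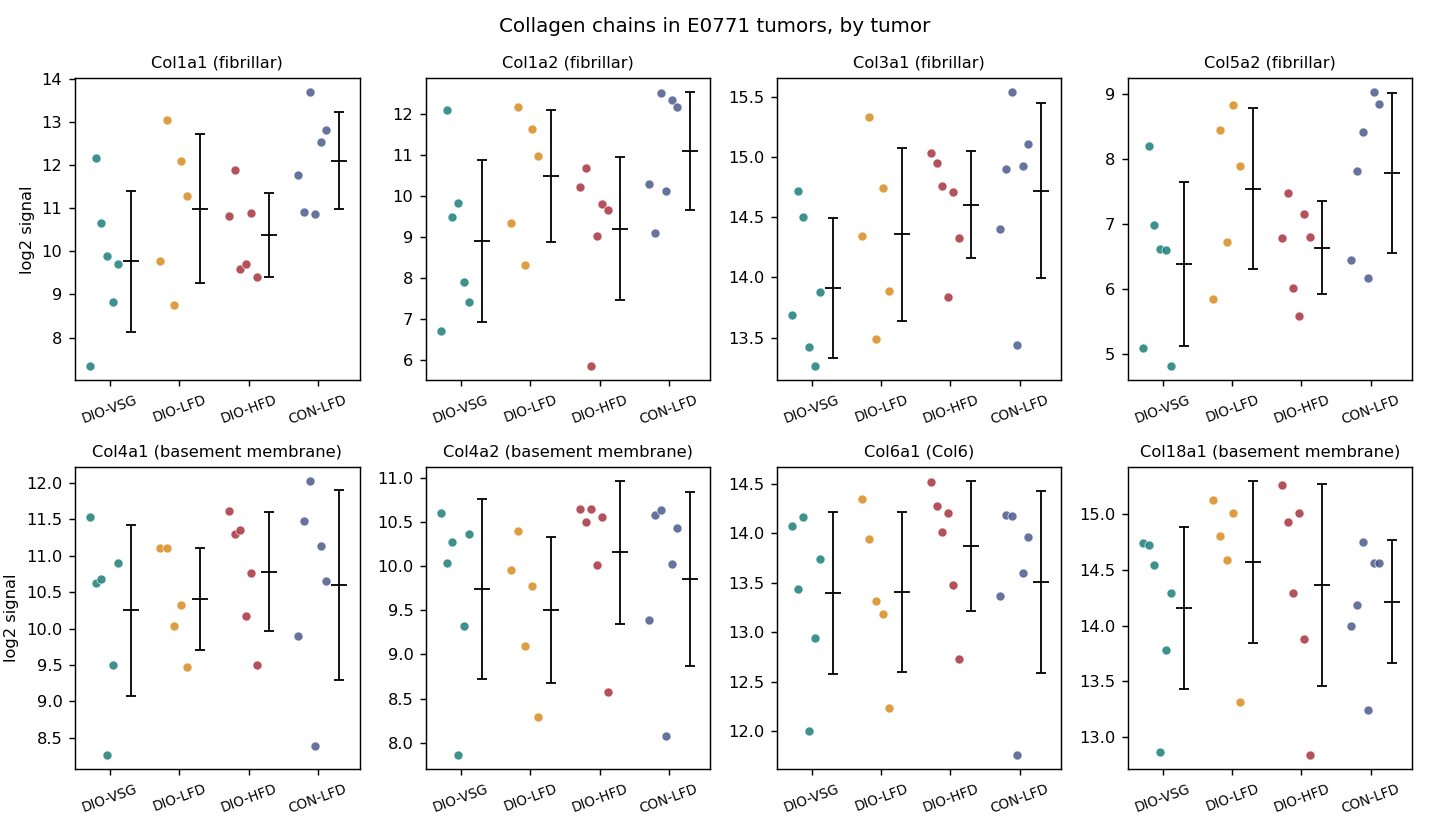
Log2 signal of 8 collagen chains in each tumor, with 1 panel per chain and the groups DIO-VSG, DIO-LFD, DIO-HFD and CON-LFD. Points are tumors and bars are mean ± SD. Col1a1 ran from 7.33 in a DIO-VSG tumor to 13.70 in a CON-LFD tumor, while the 4 groups of Col4a1, Col6a1 and Col18a1 overlapped throughout.

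The 8 basement membrane chains had median differences of 0.17 in DIO-HFD minus CON-LFD, −0.23 in DIO-VSG minus DIO-HFD and 0.28 in DIO-LFD minus DIO-HFD, and the 4 above the low-signal limit were Col4a1, Col4a2, Col15a1 and Col18a1. Col4a1, with Col4a2 the ubiquitous type IV chain, was at 8.26, 10.65 and 11.53 (lowest, median, highest) in DIO-VSG tumors, 9.50, 11.04 and 11.61 in DIO-HFD tumors and 8.38, 10.89 and 12.03 in CON-LFD tumors, with 11.10, 11.10, 10.03, 10.32 and 9.47 in DIO-LFD tumors. No group stood out. The difference was 0.19 ± 0.55 in DIO-HFD minus CON-LFD, where Col4a2 had 0.30 ± 0.49, and both lay within the spread between tumors. In DIO-LFD minus DIO-HFD, Col4a2 differed by −0.65 ± 0.51 (limma, adjusted p = 0.876).

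Col18a1, the source of the fragment endostatin, averaged 14.16 ± 0.72 in DIO-VSG, 14.57 ± 0.73 in DIO-LFD, 14.37 ± 0.91 in DIO-HFD and 14.22 ± 0.55 in CON-LFD tumors (SD), so its 4 means lay within 1 SD. Col15a1, a related chain that links basement membrane to the fibrils beside it, was the basement membrane member with the smallest p in DIO-HFD minus CON-LFD. Its lowest, median and highest values were 4.36, 5.44 and 6.16 in DIO-VSG tumors, 3.83, 5.37 and 5.97 in DIO-HFD tumors and 4.18, 6.36 and 7.09 in CON-LFD tumors, with 4.99, 6.41, 4.71, 6.27 and 4.60 in DIO-LFD tumors. Apart from replicate 4, at 4.18, every CON-LFD tumor lay above every DIO-HFD tumor. The highest DIO-VSG and DIO-LFD values, 6.16 and 6.41, lay among the CON-LFD values. The DIO-HFD minus CON-LFD difference was −1.16 ± 0.47 (2.23-fold lower in DIO-HFD, limma, unadjusted p = 0.0215, adjusted p = 0.275), and it was −1.56 without CON-LFD replicate 4. The chains Col4a3, Col4a4, Col4a5 and Col4a6, known from kidney and other specialised membranes, lay under the low-signal limit. Among them Col4a5 differed by −0.69 ± 0.29 in DIO-HFD minus CON-LFD (limma, unadjusted p = 0.0264, adjusted p = 0.293). Col4a6 differed by 0.80 ± 0.27 in DIO-LFD minus CON-LFD (limma, unadjusted p = 0.00762, adjusted p = 0.841) and by −0.73 ± 0.27 in DIO-VSG minus DIO-LFD (unadjusted p = 0.0137, adjusted p = 1.00). At such signals a difference rests on values close to the array's floor.

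Col6a1, Col6a2 and Col6a3 form the common type VI trimer, and the other Col6 chains lay under the limit. Col6a1 was at 12, 13.59 and 14.17 (lowest, median, highest) in DIO-VSG tumors, 12.73, 14.11 and 14.52 in DIO-HFD tumors and 11.76, 13.78 and 14.19 in CON-LFD tumors, with 14.35, 13.94, 13.32, 13.19 and 12.24 in DIO-LFD tumors. The groups overlapped over nearly their whole range. Differences of Col6a1 were −0.48 ± 0.43 in DIO-VSG minus DIO-HFD, −0.46 ± 0.45 in DIO-LFD minus DIO-HFD and 0.36 ± 0.43 in DIO-HFD minus CON-LFD. Col6a2 and Col6a3 differed by 0.10 and −0.03 in DIO-HFD minus CON-LFD, and Col6a3 by −0.55 ± 0.54 in DIO-VSG minus DIO-HFD. The class medians were −0.21 in DIO-VSG minus DIO-HFD, −0.11 in DIO-LFD minus DIO-HFD and −0.03 in DIO-HFD minus CON-LFD. CON-LFD replicate 4 was the lowest CON-LFD tumor for all 3 chains, at 11.76, 10.10 and 10.86.

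The 19 other chains had class medians of −0.02 in DIO-HFD minus CON-LFD, −0.03 in DIO-VSG minus DIO-HFD and −0.08 in DIO-LFD minus DIO-HFD, and 11 of them lay under the low-signal limit. Col9a3, a chain of the type IX collagen known from the surface of cartilage fibrils, was at 4.96, 5.61 and 6.21 in DIO-VSG tumors, 5.30, 6.03 and 6.29 in DIO-HFD tumors and 5.23, 5.49 and 5.88 in CON-LFD tumors, with 5.45, 5.29, 5.35, 5.19 and 5.75 in DIO-LFD tumors. DIO-HFD tumors were the high ones, with overlap in each pair. The difference was −0.53 ± 0.20 in DIO-LFD minus DIO-HFD (1.44-fold lower in DIO-LFD, limma, unadjusted p = 0.0163, adjusted p = 0.719), −0.39 ± 0.20 in DIO-VSG minus DIO-HFD and 0.43 ± 0.20 in DIO-HFD minus CON-LFD (unadjusted p = 0.0379, adjusted p = 0.336), all 3 of which share the DIO-HFD tumors. Col8a1, a short-chain collagen of vessel walls, was under the limit, with 2.48, 3.05 and 3.38 in DIO-HFD tumors and 3.13, 3.76 and 5.05 in CON-LFD tumors. Although 4 of 6 DIO-HFD tumors lay below every CON-LFD tumor (1.80-fold lower, limma, unadjusted p = 0.00899, adjusted p = 0.209), the signals were near the floor. Col14a1, which sits on type I fibrils, was above the limit and differed by −0.91 ± 0.44 in DIO-VSG minus CON-LFD (1.87-fold lower in DIO-VSG, limma, unadjusted p = 0.0485, adjusted p = 0.748) and by −0.85 ± 0.44 in DIO-HFD minus CON-LFD. Col13a1, a transmembrane collagen, differed by 0.50 ± 0.22 in DIO-LFD minus CON-LFD (limma, unadjusted p = 0.0317, adjusted p = 0.878). Its mean over all tumors was 4.74, just under the low-signal limit.

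Tumors of one group differed from each other more than most groups did, so chains were also compared tumor by tumor, as deviations from the group mean (n = 23 tumors, permutation within groups, 22 relations adjusted together). Col1a1 and Col1a2 varied together, with Pearson's r = 0.858 and Spearman's rho = 0.898 (permutation p = 1e-05 for each, the smallest 100000 permutations can give, adjusted p = 7.33e-05), and r = 0.820 without the 2 tumors farthest from the median. Col4a1 and Col4a2, which share the stretch in capitals above, had r = 0.944 and rho = 0.907 (permutation p = 1e-05, adjusted p = 7.33e-05), with r = 0.889 without the 2 farthest. Col6a1 had r = 0.940 and rho = 0.806 with its chromosome 10 neighbour Col6a2 (permutation p = 1e-05, adjusted p = 7.33e-05; 0.887 without the 2 farthest), and r = 0.868 and rho = 0.701 with Col6a3 (permutation p = 3e-05, adjusted p = 0.000165; 0.775 without the 2 farthest). Chains of these trimers thus rose and fell together across tumors. This was not particular to trimers, as Col6a1 had r = 0.904 with Col4a1, a chain of another trimer. Col5a1 and Col5a2 did not pass the test, with r = 0.217 and rho = 0.199 (permutation p = 0.358, adjusted p = 0.657). Nor did the low-signal pairs Col4a3 with Col4a4 (r = 0.150), Col4a5 with Col4a6 (r = 0.019) and Col8a1 with Col8a2 (r = −0.096). The X-linked Col4a5 and Col4a6 are also neighbours read in opposite directions.

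Col1a1 and Col4a1 did not pass the test against each other, with r = 0.235 and rho = 0.176 (permutation p = 0.310, adjusted p = 0.639). This r depended on single tumors: it was 0.442 without the 2 farthest, 0.504 without the 2 tumors whose source names differ from their titles (permutation, adjusted p = 0.0520), and 0.141 to 0.435 leaving out 1 tumor, highest without DIO-VSG replicate 1. Within groups of 6 tumors, as a description with no test, r was −0.148 in DIO-VSG, 0.597 in DIO-HFD and 0.608 in CON-LFD. After these values were seen, each of the 22 other members above the low-signal limit was set against Col1a1 and against Col4a1 (44 relations). With Col1a1, 5 members had an adjusted permutation p under 0.05, and with Col4a1 10 had, of which Col3a1 and Col15a1 were in both sets, and r was positive for all of these. Besides Col1a2 and Col3a1 (r = 0.752, rho = 0.777), the partners of Col1a1 were Col5a2 (r = 0.763, rho = 0.836), Col14a1 (r = 0.683, rho = 0.659) and Col15a1 (r = 0.622, rho = 0.701). Besides Col4a2, the partners of Col4a1 were Col6a1 (r = 0.904), Col6a3 (r = 0.848), Col5a3 (r = 0.812), Col6a2 (r = 0.794), Col5a1 (r = 0.791), Col18a1 (r = 0.787), Col16a1 (r = 0.756), Col15a1 (r = 0.738) and Col3a1 (r = 0.732). Without the 2 tumors farthest for the partner, the r of these partners with Col4a1 were all lower and positive, the smallest being 0.509 for Col16a1. Those of Col1a1's partners were 0.630 (Col15a1) to 0.897 (Col1a2). The r of 0.820 given above for Col1a1 and Col1a2 left out other tumors, the 2 farthest for Col1a1. Col1a2, Col5a2 and Col14a1 had r = 0.004, 0.168 and 0.036 with Col4a1, and 0.153, 0.395 and 0.146 without the 2 tumors whose source names differ.

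**Figure D3:**
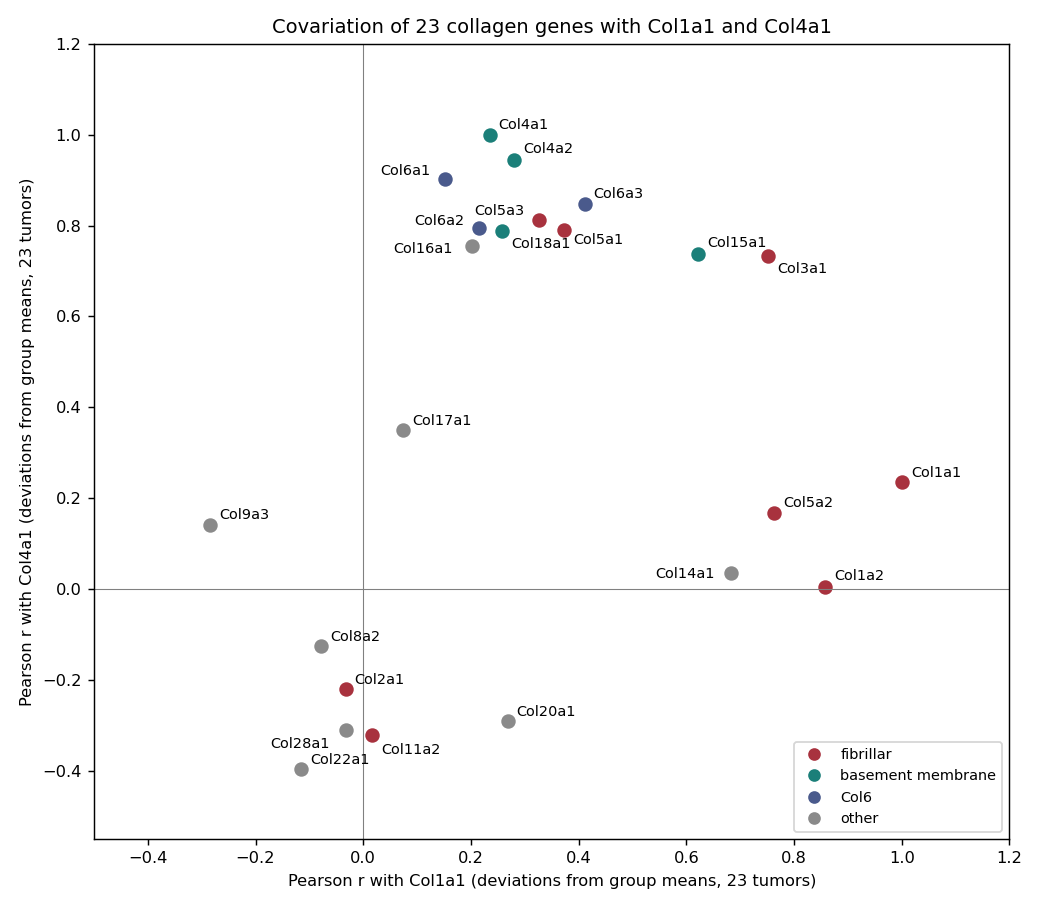
Pearson's r with Col4a1 against Pearson's r with Col1a1 for the 23 collagen genes above the low-signal limit, over deviations from group means in 23 tumors. Col1a1 and Col4a1 are drawn at 1 with themselves. Col1a2, Col5a2 and Col14a1 lie at high r with Col1a1 and r near 0 with Col4a1, while the Col6 chains lie at r of 0.794 to 0.904 with Col4a1.

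Markers of cell types moved with the 2 chains. Col1a1 followed the mean of the fibroblast list, which holds no collagen (13 of 14 genes measured, 10 above the limit), at r = 0.807 and rho = 0.831 (permutation p = 4e-05, adjusted p = 0.000176), and r = 0.748 without the 2 farthest tumors. Its r with the endothelial list was 0.170. Col4a1 followed the endothelial list (13 of 13 measured) at r = 0.758 and rho = 0.758 (permutation p = 6e-05, adjusted p = 0.000220), with 0.698 without the 2 farthest, and its r with the fibroblast list was 0.117. With the pericyte and smooth muscle list, Col4a1 had r = 0.547 (permutation p = 0.0112, adjusted p = 0.0307). This relation was not called by rank (rho = 0.456, permutation, adjusted p = 0.128) or without the 2 farthest tumors (r = 0.438). The skeletal muscle list had r = 0.230 with Col1a1 and 0.026 with Col4a1. Against the leukocyte list, added after the values were seen, Col4a1 had r = −0.697 and rho = −0.815 (permutation p = 0.00039, adjusted p = 0.00078 over 2 tests; r = −0.840 without the 2 farthest), and Col1a1 had r = −0.041.

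**Figure D4:**
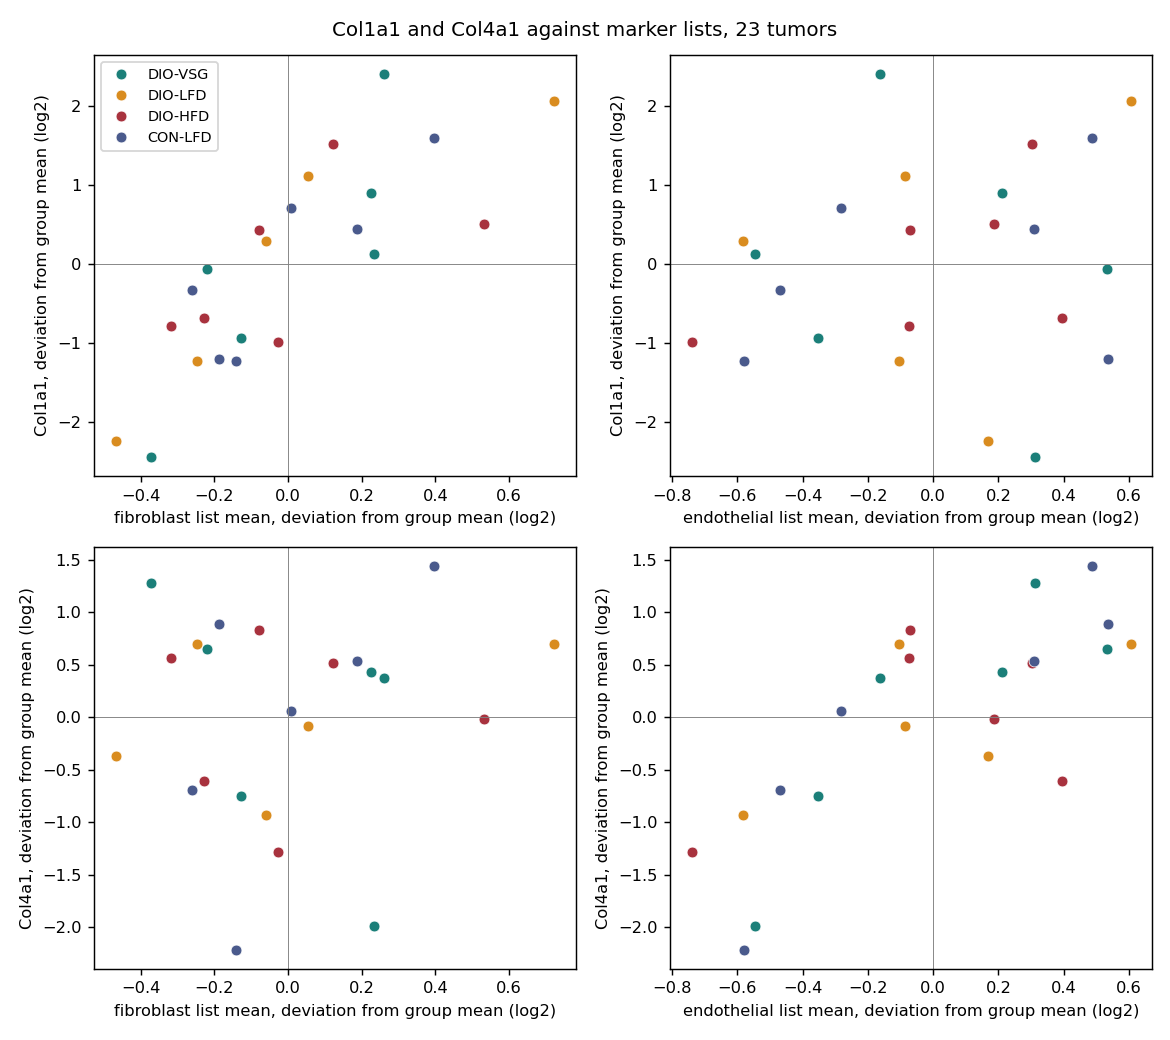
Col1a1 and Col4a1 signal against the mean of the fibroblast and of the endothelial marker list, as deviations from group means (log2) in 23 tumors, coloured by group. Col1a1 lies along the fibroblast list (r = 0.807) and Col4a1 along the endothelial list (r = 0.758), with no clear line in the other pairs.

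Between groups, the fibroblast list averaged 8.67 ± 0.27 in DIO-VSG, 9.01 ± 0.45 in DIO-LFD, 9.05 ± 0.30 in DIO-HFD and 9.09 ± 0.25 in CON-LFD tumors (SD). Its members did not run one way in DIO-HFD minus CON-LFD, with 7 higher and 6 lower, among them the surface marker Thy1 at −1.44 (limma, unadjusted p = 0.000879, adjusted p = 0.109) and the transcription factor Prrx1 at 0.765 (unadjusted p = 0.00206, adjusted p = 0.134), so the mean of the list hides opposite differences. The endothelial list averaged 7.70 ± 0.42 in DIO-VSG, 7.11 ± 0.43 in DIO-LFD, 7.43 ± 0.41 in DIO-HFD and 7.25 ± 0.50 in CON-LFD tumors. All 13 of its genes were higher in DIO-VSG minus CON-LFD, 4 of them at an unadjusted p under 0.05 (limma), beside 3.57% of all genes. The Col4a1 mean was lowest in DIO-VSG tumors, at 10.25, so it did not follow this list between groups. The leukocyte list averaged 11.14 ± 0.79 in DIO-VSG, 11.07 ± 0.93 in DIO-LFD, 10.27 ± 0.80 in DIO-HFD and 11.86 ± 0.67 in CON-LFD tumors. The skeletal muscle list spread most, with 7.08 ± 2.70 in DIO-VSG, 9.64 ± 3.21 in DIO-LFD, 7.03 ± 1.88 in DIO-HFD and 8.57 ± 4.46 in CON-LFD tumors. The part of these cell types in the collagen differences was not tested.

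Genes that make, hold or break down collagen were counted over 7 lists, and none passed an adjusted p of 0.05 by limma in the 3 comparisons with DIO-HFD. Proteins that bind collagen in the interstitial matrix (17 measured of 18) had median differences of −0.60 in DIO-HFD minus CON-LFD (3 higher, 14 lower), −0.46 in DIO-VSG minus DIO-HFD (5 higher, 12 lower) and 0.51 in DIO-LFD minus DIO-HFD (13 higher, 4 lower). Beside 5.89% of all genes, 2 of the 17 were lower in DIO-HFD minus CON-LFD at an unadjusted p under 0.05. These were the tenascin Tnc, at −1.65 (limma, unadjusted p = 0.00625, adjusted p = 0.186), and the small proteoglycan Bgn, at −1.22 (unadjusted p = 0.0416). Folding and hydroxylation enzymes (18 of 20 measured) had a median of 0.03 in DIO-HFD minus CON-LFD, equal to that of all genes. Beside 7.53% of all genes, 2 of these 18 were higher at an unadjusted p under 0.05, Colgalt2 (0.54) and P3h4 (0.40). Colgalt2 lay under the low-signal limit, with means of 3.38 in DIO-HFD and 2.84 in CON-LFD tumors. Of the trimming and cross-linking enzymes (11 of 13 measured, median −0.19), 1 was lower at such a p, Loxl3 (−0.70). Basement membrane partners (14 of 15 measured) had medians of 0.09 in DIO-HFD minus CON-LFD and −0.26 in DIO-VSG minus DIO-HFD.

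Of 8 measured collagen receptors, Lair1, an inhibitory receptor of leukocytes, differed by −1.11 in DIO-HFD minus CON-LFD (limma, unadjusted p = 0.00452, adjusted p = 0.161) and by 0.75 in DIO-VSG minus DIO-HFD (unadjusted p = 0.0436), and the leukocyte list given above ran the same way. Lair1 was the only receptor with an unadjusted p under 0.05 there, beside 5.89% of all genes lower in the first comparison and 2.92% higher in the second. Of 9 enzymes and inhibitors of collagen breakdown, 1 was lower at such a p in each comparison with DIO-HFD. These were Timp3 at −0.985 in DIO-HFD minus CON-LFD (limma, unadjusted p = 0.0419, beside 5.89% of all genes) and the gelatinase Mmp2 at −1.33 in DIO-VSG minus DIO-HFD (unadjusted p = 0.00533, adjusted p = 0.860, beside 2.67%). In DIO-LFD minus DIO-HFD it was Timp2, at −0.52 (unadjusted p = 0.0205, beside 3.77%). The TGF-beta pathway induces fibrillar collagen in fibroblasts, and 15 of its genes were measured. Beside 5.89% of all genes, 3 of these 15 were lower in DIO-HFD minus CON-LFD at an unadjusted p under 0.05. Among the 3 were the receptors Tgfbr2, at −0.82 (limma, unadjusted p = 0.00283, adjusted p = 0.147), and Tgfbr1, at −0.77 (unadjusted p = 0.0134). The median of that list was −0.02.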

How the data were processed

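RNA of 23 E0771 tumors (DIO-VSG 6, DIO-LFD 5, DIO-HFD 6, CON-LFD 6) was hybridised to Mouse Clariom S HT arrays. The authors summarised and normalised the scans with SST-RMA, and the deposited values are log2 signals of 22206 probe sets. Of these, 19572 carried 1 gene symbol of the platform annotation and 2634 none, and for 55 genes with several probe sets the one with the highest mean was kept, leaving 19505 genes. Its signal space transformation widens fold changes, so folds are on that scale. For the tumor arrays the methods name gene set enrichment and no test of single genes.

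Groups came from the sample titles. limma 3.58.1 (R 4.3.3; lmFit, eBayes, 1 mean per group, all arrays) gave 6 two-sided contrasts, with Benjamini-Hochberg adjustment over all genes and a threshold of 0.05. Each tumor came from its own mouse, all in 1 experiment of the study, so p-values measure the spread between mice of that experiment. Correlations and their permutations used scipy 1.17.1 and numpy 2.4.6 on Python 3.11.15, and exact permutation tests used R 4.3.3. The fit was tested on simulated data. Sequences came from the RefSeq table of GRCm38.p6.

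The members, lists and tests were chosen with earlier results of these data known. Named were 10 chains of types I, III, IV, V and VI, any called member, and, per class and comparison, the 2 members with the smallest p and the largest difference above the low-signal limit. Partners of Col1a1 and Col4a1, the leukocyte list and the muscle limit of 9 were chosen after values were seen. Alternatives were quantile normalisation and centering of arrays, array weights, a trended robust prior, a filter on low signal, the mean over probe sets, the muscle or adipocyte list as covariate, other sample sets, leaving out each tumor and a replicate block.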

Additional observations from a re-analysis of the deposited data

Results flagged for a closer look

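In a search of 27 named chains within the 4 groups (108 pairs of chain and group), 7 had 1 tumor far from the rest of its group by Dixon's criterion, which chance meets in about 1 of 20 groups. CON-LFD replicate 4 was the far tumor for 3 chains, with 4.18 for Col15a1, 11.76 for Col6a1 and 10.10 for Col6a2, each the lowest of its group. DIO-HFD replicate 3 had the lowest Col1a2 value of its group, 5.84. DIO-HFD replicate 6 had a low Col4a2 value, 8.57, and a high value, 5.34, of Col13a1, a gene just under the low-signal limit. DIO-VSG replicate 4 had a low Col4a6 value, 2.30, from a gene under the low-signal limit.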

How the results depend on the processing

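The count of collagen genes with an adjusted p under 0.05 was 0 in all 6 comparisons by limma and stayed 0 under every alternative run. Over all genes, DIO-HFD minus CON-LFD had 1 call, and it had 2 with the muscle list as covariate, 5 with only the 2 groups fitted, 5 without the 8 muscle-rich tumors, 12 with a replicate block, 13 with array weights, 17 with a trended robust prior, 66 without the 2 tumors whose source names differ from their titles and 196 with groups by source name. Leaving out 1 tumor gave 0 to 6 calls, except 60 without DIO-LFD replicate 1. An exact two-sided permutation test over tumors, run for 10 chains in 3 comparisons, gave a smallest p of 0.0260 (Col1a1, DIO-HFD minus CON-LFD; 0.00216 was the smallest possible), and none of the 30 passed adjustment. Tumors of different groups with the same replicate number were no more alike than those with other numbers. Their deviations from the group means correlated at −0.28 to 0.34 (33 pairs, median 0.004). The 165 pairs with other numbers had −0.38 to 0.44 (median −0.012). The replicate block gave 0 collagen calls, as every other setting did, so that count cannot decide on pairing. Of the class medians, that of fibrillar chains in DIO-LFD minus DIO-HFD moved most, to 0.476 without the muscle-rich tumors, against −0.245. Centering the arrays moved the median of all genes in DIO-HFD minus CON-LFD to 0.14, against 0.03. The correlation of Col3a1 with Col1a1 was 0.749 without the muscle-rich tumors (adjusted p = 0.0636, permutation), where that of Col4a1 with the pericyte list was 0.478, of Col4a5 with Col4a6 −0.0380, of the muscle list −0.484 with Col1a1 and −0.351 with Col4a1, and of Col4a1 with the adipocyte list 0.0477. Without the 2 farthest tumors Col1a1 had 0.583 with the pericyte list, −0.00579 with the adipocyte list and −0.0648 with the mammary list, Col4a1 had 0.438 with the pericyte and −0.0499 with the mammary list, Col4a5 with Col4a6 had −0.204 and Col8a1 with Col8a2 had 0.115. Without group centering, Col4a5 with Col4a6 had −0.114 and Col1a1 with the endothelial list −0.0887. Leaving out 1 tumor at a time, the ranges were −0.166 to 0.186 (Col4a5 with Col4a6), −0.0263 to 0.367 (Col4a3 with Col4a4), −0.189 to 0.0403 (Col8a1 with Col8a2), −0.144 to 0.221 (Col4a1 with muscle), −0.00354 to 0.242 (Col1a1 with mammary), 0.302 to 0.548 (Col1a1 with pericyte, called without DIO-HFD replicate 2 or DIO-VSG replicate 1) and 0.457 to 0.629 (Col4a1 with pericyte, not called without any 1 of CON-LFD replicates 1, 3, 4 and 5, DIO-LFD replicates 2 and 5 and DIO-VSG replicate 4). The cause of these shifts was not tested. Groups of 5 or 6 tumors with SDs up to 1.98 limit what differences can pass, and 19 chains lie at low signal.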
